A study of Mus musculus with 12 samples.

Results

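Immediate early genes and feedback inhibitors of receptor tyrosine kinase (RTK) signalling were examined in the developing upper face of the mouse. The 34 genes were picked by symbol, and all 34 were found among the 53392 genes of each deposited table. Polyadenylated RNA was sequenced from embryos of the 129S4 background in 4 groups of 3 libraries, named by the submitters as biological replicates. Palatal shelf mesenchyme was taken at embryonic day E13.5 from Pdgfra+/+ (wild-type) and PdgfraPI3K/PI3K (PI3K) embryos. Maxillary process mesenchyme was taken at E11.5 from Srsf3fl/fl;Wnt1-Cre+/+ embryos (control, floxed with no Cre transgene) and Srsf3fl/fl;Wnt1-Cre+/Tg embryos (labelled Srsf3 cKO). All tissues were dissected on ice and treated with trypsin in the cold to take off the ectoderm, then kept overnight in RNAlater before RNA was isolated. The PI3K allele is a knock-in that stops the receptor PDGFRα from binding PI3 kinase, and it was carried in all cells. Wnt1-Cre acts in the neural crest, so that other cells of the maxillary process keep Srsf3.

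Immediate early genes are switched on within minutes of a growth factor, mechanical, heat or wounding stimulus, without need of new protein. When an RTK such as PDGFRα is engaged, the Ras and ERK kinases phosphorylate ETS family factors that sit with serum response factor (SRF) on DNA, and the genes they induce include Fos, the Egr factors and SRF's own gene. A slower set of ERK targets, the MAP kinase phosphatases (Dusp genes) and the Sprouty and Spred proteins, damps the same cascade and is widely used as a readout of fibroblast growth factor signalling in the face. SRF also works with MRTF cofactors that respond to actin, and Cyr61 and Ctgf, matricellular protein genes now named Ccn1 and Ccn2, respond to mechanical load as well.

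Total estimated counts were 30.5 to 37.4 M (M, mega) per palatal shelf library and 15.9 to 27.9 M per maxillary process library. Values below are in CPM, counts scaled to a common library total with TMM factors, unless given as TPM, which also corrects for transcript length. Of the design genes, Pdgfra differed between PI3K and wild-type by 0.02 (SE 0.10, adjusted p = 0.9997, edgeR) on log2 CPM. On the TPM scale its groups did not overlap, with 139.8, 130.3 and 144.5 TPM in wild-type and 186, 200.5 and 243 TPM in PI3K libraries, a difference of 0.59 on log2(TPM + 1) with an adjusted p of 0.9998 (limma). Srsf3 differed between libraries labelled Srsf3 cKO and controls by 0.03 (SE 0.14, adjusted p = 0.9539, edgeR quasi-likelihood test), and its sign turned without library 2 of those labelled Srsf3 cKO (-0.07). A gene total need not fall when part of its exons is lost. All 7 facial mesenchyme markers were present in all 12 libraries. Of the 12 ectoderm markers, the summed level was 465 to 1070 CPM in the palatal shelf and 2.45 to 27.0 CPM in the maxillary process, where Krt5, Krt14 and Krt15 were at 0 in control library 2. Fewer cells of a type and less RNA per cell cannot be told apart in such bulk samples.

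The promoters of several of these genes carry the DNA element read by SRF, the CArG box. The sequences were chosen for display after the values of Srf and Zfp36 in a single library were seen. RefSeq promoter entries (build GRCm38.p6, 250 bases before the start site searched on both strands) existed for 25 of the 34 genes. A CArG box lay in 4 of the 25 (Dusp5, Egr2, Srf and Zfp36), against 1.62% of 27025 genes. The CRE motif TGACGTCA lay in 1 (Dusp1), against 1.77% of genes. The motifs for AP-1 (TGANTCA), ETS (CCGGAAGT) and EGR (GCGTGGGCG) factors lay in 0 of the 25, with 7.82%, 3.23% and 0.622% of genes holding them. TATAAA lay in 4 (Cyr61, Fos, Nr4a2 and Srf), against 14.3%. The windows below are written 5′ to 3′ on the gene's strand with the motif in capitals. Srf lies on the minus strand and its window at chr17:46556205-46556254, which spans 92 to 43 bases before the start, holds a pair of boxes. Zfp36 lies on the minus strand at chr7:28379267-28379296, Dusp5 on the plus strand at chr19:53529053-53529092 with adjoining boxes, Egr2 on the plus strand at chr10:67537787-67537816, and Dusp1 on the minus strand at chr17:26508598-26508625. These are matches to letters, binding was not measured, and their part in the values below was not tested.
Srf, CArG boxes: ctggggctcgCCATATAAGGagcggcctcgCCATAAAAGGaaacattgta
Zfp36, CArG box: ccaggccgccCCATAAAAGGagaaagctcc
Dusp5, CArG boxes: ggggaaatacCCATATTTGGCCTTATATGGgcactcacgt
Egr2, CArG box: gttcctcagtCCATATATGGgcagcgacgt
Dusp1, CRE: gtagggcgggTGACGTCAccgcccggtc

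Immediate early messages are also known for rapid decay through AU-rich elements of the 3′ UTR, which are bound by the product of Zfp36 itself, the decay factor tristetraprolin. In the GENCODE M21 annotation (GRCm38), the element TATTTAT occurred in the 3′ UTR of the longest coding transcript of 20 of 33 members (60.6%), against 30.2% of 14619 coding genes tested. The UTRs were of like length, with a median of 1189 bases in the members and 1155 in all genes. Members had a median of 4 exons against 9, and 75.8% of members had 4 exons or fewer, against 23.0% of genes. The sites with most element bases within 30 bases are shown for Ier3 (UTR bases 170 to 199) and Zfp36 (bases 570 to 599), with the element in capitals.
Ier3, AU-rich elements: tccgtgtctaattaaTATTTATgTATTTAT
Zfp36, AU-rich elements: gggcccttTATTTATgacgacttTATTTAT

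Per length, Jund, Dusp6 and Ier2 had the highest mean TPM over the 12 libraries, and Fosb and Fosl1 the lowest. Jund, an AP-1 subunit gene kept on in most cells, had 181 ± 18.5 TPM in wild-type palatal shelf and 190.0 ± 12.5 TPM in control maxillary process (SD, n = 3). Next in the wild-type palatal shelf came Dusp6 (99.6 ± 34.1 TPM), Myc (77.9 ± 18.3 TPM), Klf4 (67.4 ± 29.6 TPM), Ier2 (62.9 ± 14.3 TPM) and Srf (60.0 ± 6.23 TPM), and neighbours in this order differed by less than the larger SD of the pair. In the control maxillary process the order after Jund was Ier2 (113 ± 32.0 TPM), Dusp6 (102 ± 42.8 TPM), Srf (79.2 ± 2.89 TPM) and Jun (50.8 ± 2.80 TPM). Fos, the best known of the family, stood at 3.23 ± 1.22 TPM in wild-type palatal shelf and 1.51 ± 1.53 TPM in control maxillary process. Fosb had 0.345 ± 0.0955 TPM and Fosl1 0.167 ± 0.0874 TPM in the wild-type palatal shelf. The 2 tissues were normalised in separate tables, so TPM order is read within each.

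In the palatal shelf single libraries stood apart. PI3K library 2 had over 2 times the CPM of both other PI3K libraries for 6 of the 32 members with a mean of at least 1 CPM (18.8%): Fos, Ier3, Atf3, Zfp36, Srf and Cyr61. Of 14277 genes at that level, 1.00% stood as high in that library. Srf, which encodes serum response factor (ENSMUSG00000015605.6, chromosome 17, 46548329 to 46556175), had 70.4, 70.2 and 80.1 CPM in wild-type libraries 1, 2 and 3 and 62.4, 278 and 76.1 CPM in PI3K libraries 1, 2 and 3. The other 5 values lay within 62.4 to 80.1 CPM. Cyr61 had 41.5, 18.4 and 29.9 CPM in wild-type libraries 1, 2 and 3 and 32.5, 192 and 24.1 CPM in PI3K libraries 1, 2 and 3. Zfp36 had 12.9, 8.05 and 10.8 CPM in wild-type libraries 1, 2 and 3 and 11.7, 50 and 9.22 CPM in PI3K libraries 1, 2 and 3. Ier3, an early response gene linked to cell survival, had 3.81, 3.29 and 4.15 CPM in wild-type libraries 1, 2 and 3 and 3.93, 36.9 and 2.82 CPM in PI3K libraries 1, 2 and 3. In these 4 genes library 2 was above all 5 other palatal shelf libraries, and PI3K libraries 1 and 3 overlapped the wild-type range or lay just outside it.

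Of the 8 AP-1 genes, 5 were the highest of their group in PI3K library 2 and 3 the lowest. Among all genes with a mean of at least 1 CPM, 37.3% were highest and 36.5% lowest there. Fos had 3.43, 1.45 and 3.35 CPM in wild-type libraries 1, 2 and 3 and 3.37, 8.77 and 1.43 CPM in PI3K libraries 1, 2 and 3, so that library 2 was the highest of the 6 at a low level. Junb had 8.63, 4.68 and 7.33 CPM in wild-type libraries 1, 2 and 3 and 8.43, 16.7 and 4.51 CPM in PI3K libraries 1, 2 and 3, again highest in PI3K library 2. Jun had 86.4, 51.5 and 73.6 CPM in wild-type libraries 1, 2 and 3 and 93.8, 106 and 78.1 CPM in PI3K libraries 1, 2 and 3, and the groups overlapped. Fosl2, the Fos-type gene with the highest TPM in this tissue, had 97.4, 39.9 and 86.3 CPM in wild-type libraries 1, 2 and 3 and 96, 130.5 and 39.1 CPM in PI3K libraries 1, 2 and 3. It was lowest in PI3K library 3 and wild-type library 2. Jund went the other way, with 171, 139 and 150.1 CPM in wild-type libraries 1, 2 and 3 and 180.3, 119.7 and 154 CPM in PI3K libraries 1, 2 and 3 and its lowest value in PI3K library 2. Fosb and Fosl1, also lowest of the PI3K libraries there, stayed below 1 CPM in all palatal shelf libraries, and Atf3 ran from 0.794 to 3.04 CPM.

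**Figure D1:**
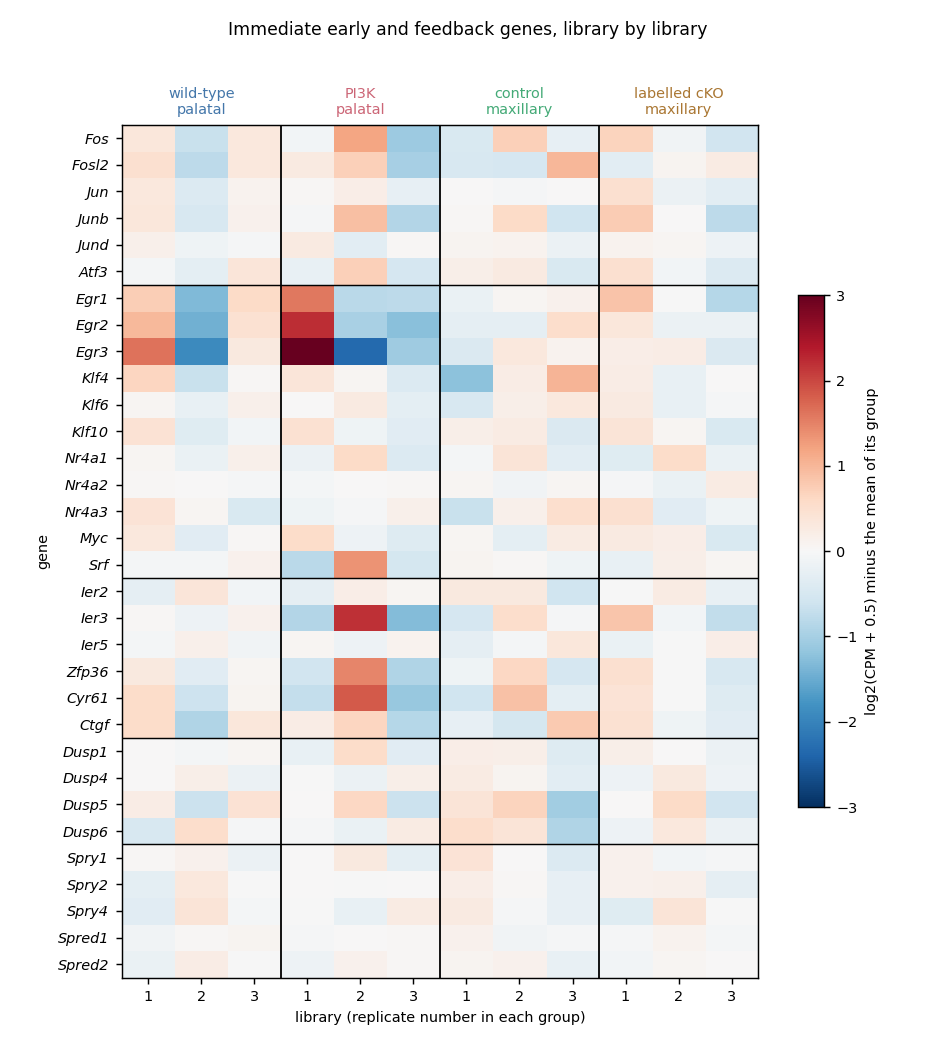
Each cell is the log2(CPM + 0.5) of a gene in a library minus the mean of its group, with libraries in columns (3 per group), genes in rows by role and red for values above the group mean. Srf, Ier3, Zfp36 and Cyr61 are red in PI3K library 2, while Egr1, Egr2 and Egr3 are red in PI3K library 1 and blue in wild-type library 2.

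The Egr genes, zinc finger factors induced through ERK and SRF, varied as much, but in other libraries. Egr1 (chromosome 18, 34859823 to 34864984) had 54.5, 12.8 and 49.3 CPM in wild-type libraries 1, 2 and 3 and 74, 13.6 and 13.8 CPM in PI3K libraries 1, 2 and 3. Egr2 had 7.65, 1.01 and 5.18 CPM in wild-type libraries 1, 2 and 3 and 11.6, 0.806 and 0.589 CPM in PI3K libraries 1, 2 and 3. Egr3 (chromosome 14, 70077203 to 70082614) had 31.7, 2.25 and 12.2 CPM in wild-type libraries 1, 2 and 3 and 48.7, 0.434 and 1.74 CPM in PI3K libraries 1, 2 and 3. All 3 were high in wild-type libraries 1 and 3 and PI3K library 1 and low in the other 3 libraries, so that each genotype held both states. Egr3 was thus lowest in the very library where Srf and Ier3 were highest. Wild-type library 2 was over 2 times below both other wild-type libraries for 7 of 32 members (21.9%), namely Fos, Fosl2, Egr1, Egr2, Egr3, Dusp5 and Ctgf, against 1.98% of 14276 genes. Summed skeletal muscle markers, 7 genes, were 56.8, 1.75 and 2.26 CPM in wild-type libraries 1, 2 and 3 and 270.0, 34.6 and 147 CPM in PI3K libraries 1, 2 and 3. Facial mesenchyme markers summed to 9840, 5010 and 6520 CPM and to 8050, 6170 and 5010 CPM in the same order, and Col1a1 made up most of that difference. Osr2, Msx1 and Twist1 of that list were instead highest of the wild-type libraries in library 2. Macrophage markers, 8 genes, summed to 115, 42.4 and 67.5 CPM and to 85.7, 47.7 and 54.3 CPM in the same order. The part of these cell types in the Egr pattern was not tested.

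Other inducible factors moved less. Klf4 had 158, 63.2 and 104 CPM in wild-type libraries 1, 2 and 3 and 154, 123 and 89 CPM in PI3K libraries 1, 2 and 3, lowest in wild-type library 2. Myc, a growth-promoting factor, had 98.2, 61.9 and 80 CPM in wild-type libraries 1, 2 and 3 and 90.7, 55.3 and 47.3 CPM in PI3K libraries 1, 2 and 3. Both genes were highest in wild-type library 1, and their groups overlapped. The orphan nuclear receptor gene Nr4a1 had 16.6, 13.8 and 17.7 CPM in wild-type libraries 1, 2 and 3 and 16.8, 28.8 and 14.2 CPM in PI3K libraries 1, 2 and 3, highest in PI3K library 2. Its relative Nr4a2 had 10.9, 10.7 and 10.4 CPM in wild-type libraries 1, 2 and 3 and 10.9, 11.4 and 11.6 CPM in PI3K libraries 1, 2 and 3, the steadiest of the inducible factors. Nr4a3 had 4.6, 3.48 and 2.32 CPM in wild-type libraries 1, 2 and 3 and 4.37, 4.71 and 5.48 CPM in PI3K libraries 1, 2 and 3. Klf6 lay between 34.6 and 53.8 CPM and Klf10 between 15.3 and 29.5 CPM. Of the early response genes, Ier2 had 38.9, 60.3 and 44.6 CPM in wild-type libraries 1, 2 and 3 and 46.9, 65.2 and 58.9 CPM in PI3K libraries 1, 2 and 3, with its 3 lowest values in wild-type libraries 1 and 3 and PI3K library 1. Ctgf had 38.4, 13.6 and 32.8 CPM in wild-type libraries 1, 2 and 3 and 35.5, 47.7 and 16.8 CPM in PI3K libraries 1, 2 and 3, low in wild-type library 2 and PI3K library 3, and Ier5 stayed within 50.3 to 64.6 CPM.

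Wild-type library 2 was the highest of its group for Dusp4 and Dusp6 and the lowest for Dusp1 and Dusp5. Dusp6, the cytoplasmic phosphatase of ERK, had 82.4, 165 and 111 CPM in wild-type libraries 1, 2 and 3 and 93.4, 83.6 and 114 CPM in PI3K libraries 1, 2 and 3. Spry4 had 27.1, 45.6 and 33.1 CPM in wild-type libraries 1, 2 and 3 and 27.7, 23.9 and 33.6 CPM in PI3K libraries 1, 2 and 3. Spry2 had 24.2, 37.6 and 29.6 CPM in wild-type libraries 1, 2 and 3 and 27.4, 26.5 and 27 CPM in PI3K libraries 1, 2 and 3. In that same library the Egr genes, Fosl2 and the phosphatase gene Dusp5 were low, while the early genes Ier2 and Ier5 were the highest of their group. That library was the highest of its group for 4 of the 5 Sprouty and Spred genes (Spry1, Spry2, Spry4 and Spred2), where 40.0% of all genes were highest, and the lowest for 21 of all 32 members (65.6%), against 34.2% of genes. PI3K library 3 was likewise the lowest of its group for 18 of 32 members (56.2%), against 30.6% of genes. Ectoderm markers summed to 1030, 1070 and 465 CPM in PI3K libraries 1, 2 and 3, and their part in these low values was not tested. Spry1 had 70.1, 74.5 and 60.3 CPM in wild-type libraries 1, 2 and 3 and 58.2, 70.8 and 47.3 CPM in PI3K libraries 1, 2 and 3. Spred1 had 112, 123 and 129 CPM in wild-type libraries 1, 2 and 3 and 115, 119 and 122 CPM in PI3K libraries 1, 2 and 3, and Spred2 had 81.7, 109 and 93 CPM in wild-type libraries 1, 2 and 3 and 89.2, 108 and 101 CPM in PI3K libraries 1, 2 and 3. These membrane-anchored inhibitors of Raf activation were nearly flat across the 6 libraries. Among the other phosphatases, Dusp1, which acts in the nucleus on JNK and p38, had 10.6, 10.1 and 10.9 CPM in wild-type libraries 1, 2 and 3 and 12.1, 21 and 11 CPM in PI3K libraries 1, 2 and 3. Dusp4 had 8.94, 10.1 and 7.74 CPM in wild-type libraries 1, 2 and 3 and 9.79, 8.62 and 11.3 CPM in PI3K libraries 1, 2 and 3, and Dusp5 had 2.39, 1.07 and 2.81 CPM in wild-type libraries 1, 2 and 3 and 2.61, 4.28 and 1.49 CPM in PI3K libraries 1, 2 and 3.

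**Figure D2:**
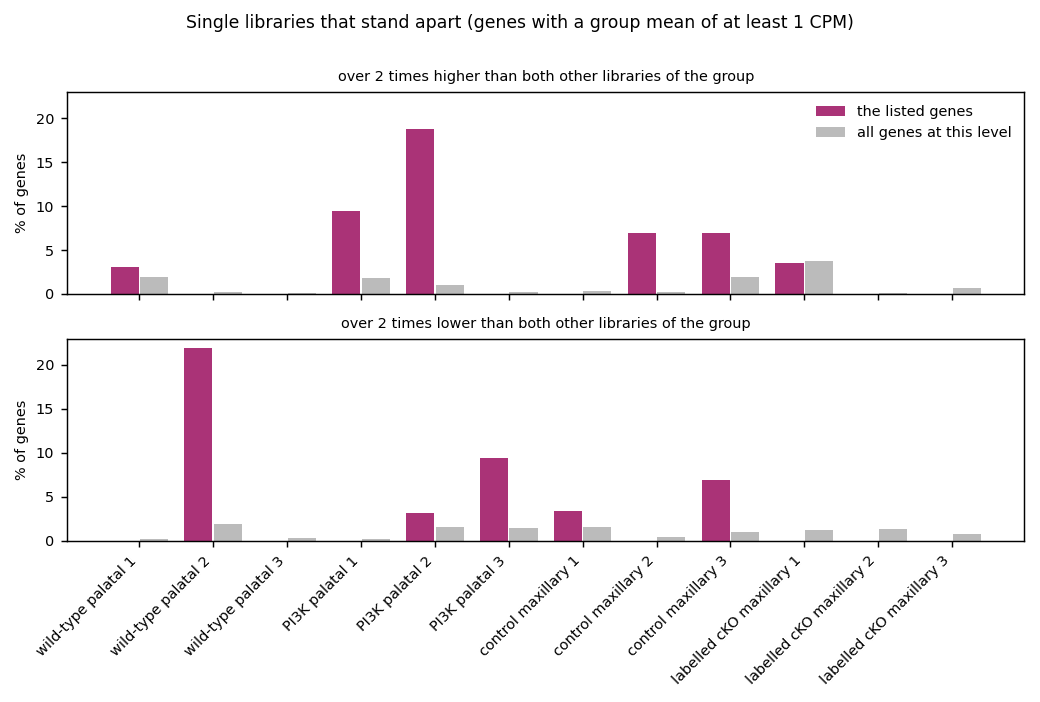
Bars give, for each library, the percentage of the listed genes (purple) and of all genes with a group mean of at least 1 CPM (grey) whose CPM was over 2 times above (top) or below (bottom) both other libraries of the group. The tallest bars for the listed genes are 18.8% above in PI3K library 2 and 21.9% below in wild-type library 2, against 1.00% and 1.98% of all genes.

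Further genes that share triggers with these members were read in PI3K library 2. Of 31 other immediate early genes at 1 CPM or more, 2 were over 2 times higher there (Bhlhe40 and Nfil3) and 2 lower (Trib1 and Klf2). Bhlhe40, a factor induced by low oxygen and other stress, had 18, 133 and 9.17 CPM in PI3K libraries 1, 2 and 3. The inducible heat shock genes Hspa1a and Hspa1b had 2.49, 57.2 and 1.92 CPM and 8.72, 92.2 and 7.45 CPM in the same libraries. These are near-identical copies whose reads can be split either way, and the genes in this paragraph were singled out after their values were seen. Nfil3 had 17.8, 37.9 and 16.2 CPM, and Fhl2, an SRF target, 7.77, 23.8 and 6.02 CPM. Of 12 heat shock genes, 2 were over 2 times higher there (Hspa1a and Hspa1b). Of 18 actin and other SRF and MRTF targets, 1 was (Fhl2). Among 30 RTK to ERK genes and 13 other RTK feedback genes, 0 were. The share over all genes was 1.00%. The heat shock list summed to 5320, 6090 and 5670 CPM in PI3K libraries 1, 2 and 3.

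Between PI3K and wild-type palatal shelf, 0 of the 33 members tested were called by edgeR's quasi-likelihood test at an FDR of 0.05, where 0.0% of 16525 genes were called. The counts at an unadjusted p under 0.05 were 0 members and 354 genes (2.14%), and DESeq2 called 0 members and 4 genes (0.0145%). The members' log2 fold changes were positive in 23 and negative in 10, with a median of 0.18 against -0.01 over all genes tested. The 7 AP-1 genes tested had a median of 0.52, the 6 other early response genes 0.71, the 4 phosphatases 0.29 and the 5 Sprouty and Spred genes -0.17. Without PI3K library 2 these medians were 0.08, -0.04, 0.05 and -0.16. The largest value was that of Ier3, at 1.96 (SE 0.93, 95% interval from -0.23 to 4.14, adjusted p = 0.9997). Cyr61 stood at 1.47 (SE 0.78), Zfp36 at 1.16 (SE 0.62), Srf at 0.92 (SE 0.53), Fos at 0.72 (SE 0.65) and Junb at 0.52 (SE 0.47).

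Those 6 values rested on PI3K library 2. Without it the log2 fold change was -0.15 for Ier3, -0.08 for Cyr61, -0.01 for Zfp36, -0.08 for Srf, -0.19 for Fos and -0.09 for Junb, and the median of the members was 0.01. Egr1 (-0.20, SE 0.78), Egr2 (-0.10, SE 1.16) and Egr3 (0.14, SE 1.49) were near 0 with wide errors. Without PI3K library 1 they became -1.49, -2.71 and -3.78, none with an adjusted p under 0.05. Groups did not overlap for 2 members, Dusp1 and Nr4a2, both higher in PI3K, while 6.29% of all genes did not overlap. Dusp1 differed by 0.48 (SE 0.25) and by 0.13 without PI3K library 2, and Nr4a2 by 0.09 (SE 0.12), a sign that turned on the TPM scale (-0.03). Jun differed by 0.40 (SE 0.20, unadjusted p = 0.08804), with 0.22 to 0.59 when single libraries were left out. Dusp6 (-0.29, SE 0.24) and Spry4 (-0.31, SE 0.21) were on the low side, and Dusp6 was at 0.02 without wild-type library 2.

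**Figure D3:**
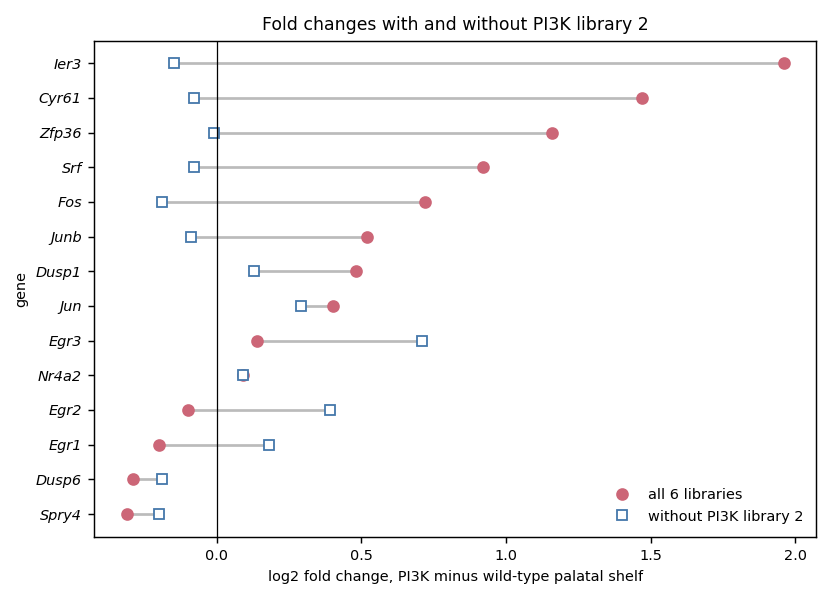
Log2 fold changes of PI3K minus wild-type palatal shelf for 14 members, with all 6 libraries (filled circles) and without PI3K library 2 (open squares). Ier3, Cyr61, Zfp36, Srf, Fos and Junb move from between 0.52 and 1.96 to between -0.19 and -0.01.

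As edgeR called 0 of 16525 genes in the palatal shelf, the surrounding lists could hold no called gene. At an FDR of 0.05, 0 of 32 other immediate early genes, 0 of 30 genes of the RTK to ERK cascade with its ETS factors, 0 of 13 other RTK feedback genes, 0 of 19 actin and other SRF and MRTF targets and 0 of 12 heat shock genes passed. Their median log2 fold changes were 0.16, 0.06, 0.12, 0.16 and -0.11. Counts at an unadjusted p under 0.05 were 2, 1, 0, 1 and 1 genes, against 2.14% of all genes tested. Without PI3K library 2 the medians were 0.02, -0.02, -0.04, -0.05 and -0.11.

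In the maxillary process 0 of 31 members tested passed an FDR of 0.05 between libraries labelled Srsf3 cKO and controls, where 12 of 14254 genes passed (0.0842%). Unadjusted p-values under 0.05 were found for 5 members on the high side, where 6.34% of genes had them, and for 4 on the low side, where 5.91% did. Groups did not overlap for 4 members with higher values (Spry4, Spred1, Spred2 and Ctgf) and 2 with lower values (Jun and Nr4a2), against 8.43% and 9.75% of genes. The members' median log2 fold change was 0.16 against 0.00 over all genes, and -0.03 without control library 3.

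The Sprouty and Spred inhibitors were all on the high side, 5 of 5 positive with a median of 0.31. Spry4 had 29.4, 23.8 and 20.5 CPM in control libraries 1, 2 and 3 and 29.4, 50 and 38 CPM in libraries 1, 2 and 3 labelled Srsf3 cKO, with a log2 difference of 0.68 (SE 0.21, adjusted p = 0.3112, edgeR). Spred2 had 94.5, 96.9 and 76.4 CPM in control libraries 1, 2 and 3 and 107, 118 and 114 CPM in libraries 1, 2 and 3 labelled Srsf3 cKO, and differed by 0.34 (SE 0.11, adjusted p = 0.3104, edgeR). Spred1 had 127, 108 and 112 CPM in control libraries 1, 2 and 3 and 135, 149 and 134 CPM in libraries 1, 2 and 3 labelled Srsf3 cKO, and differed by 0.28 (SE 0.09, adjusted p = 0.3273, edgeR). In these 3 genes the lowest library labelled Srsf3 cKO was above the highest control, in Spry4 only beyond the digits printed here. Spry2 had 20.8, 18.5 and 15 CPM in control libraries 1, 2 and 3 and 24.3, 24.5 and 18.3 CPM in libraries 1, 2 and 3 labelled Srsf3 cKO, and Spry1 had 20.1, 15.3 and 11.2 CPM in control libraries 1, 2 and 3 and 18.9, 16.5 and 16.9 CPM in libraries 1, 2 and 3 labelled Srsf3 cKO. Both overlapped between the groups.

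The 4 MAP kinase phosphatases were also positive, with a median of 0.14 (-0.01 without control library 3) and none at an unadjusted p under 0.05. Dusp6 had 208, 188 and 77.3 CPM in control libraries 1, 2 and 3 and 144, 199 and 141 CPM in libraries 1, 2 and 3 labelled Srsf3 cKO. The groups overlapped, and control library 3 stood over 2 times below the other controls. Dusp5, a nuclear ERK phosphatase with adjoining CArG boxes in its promoter, had 6.1, 7.52 and 1.94 CPM in control libraries 1, 2 and 3 and 8.18, 12.3 and 5.36 CPM in libraries 1, 2 and 3 labelled Srsf3 cKO. Dusp4 had 17.9, 16.1 and 11.9 CPM in control libraries 1, 2 and 3 and 15.2, 21 and 15.3 CPM in libraries 1, 2 and 3 labelled Srsf3 cKO, and Dusp1 had 22.8, 22.7 and 15.2 CPM in control libraries 1, 2 and 3 and 24.4, 21.9 and 19.1 CPM in libraries 1, 2 and 3 labelled Srsf3 cKO. Library 3 labelled Srsf3 cKO was the lowest of its group for 17 of 28 members (60.7%), against 28.3% of genes. Control library 3 was the lowest of its group for 16 of 29 members (55.2%), against 40.3% of genes, and for all 4 phosphatases. Of the RTK to ERK list, 9 of 30 genes were higher and 0 lower at an unadjusted p under 0.05, against 6.34% and 5.91% of genes. The list was on the same side as the phosphatases, with 23 of 30 genes positive and 0 at an FDR of 0.05. Its ETS factor Etv5, named after its values were seen, had 103, 78.2 and 50.4 CPM in the controls and 125, 165 and 127 CPM in those labelled Srsf3 cKO (log2 difference 0.86, SE 0.24, adjusted p = 0.2853, edgeR).

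The 10 inducible factors tested had 4 positive and 6 negative values with a median of -0.07, or 0.20 without control library 2. The 6 AP-1 genes tested had 2 positive and 4 negative values with a median of -0.31, or 0.05 without that library. Jun had 96.7, 94.5 and 97.3 CPM in control libraries 1, 2 and 3 and 79.9, 50.9 and 46.3 CPM in libraries 1, 2 and 3 labelled Srsf3 cKO, and differed by -0.70 (SE 0.20, adjusted p = 0.2888, edgeR). The groups did not overlap, and library 1 labelled Srsf3 cKO lay nearest to the controls. Nr4a2 had 10.6, 9.43 and 10.7 CPM in control libraries 1, 2 and 3 and 6.07, 5.34 and 7.5 CPM in libraries 1, 2 and 3 labelled Srsf3 cKO, and differed by -0.70 (SE 0.19, adjusted p = 0.2795, edgeR). Klf4 had 9.86, 27.6 and 48.6 CPM in control libraries 1, 2 and 3 and 12.6, 9.13 and 11 CPM in libraries 1, 2 and 3 labelled Srsf3 cKO, and differed by -1.40 (SE 0.50, adjusted p = 0.3592, edgeR), or by -0.77 without control library 3. Its groups overlapped through control library 1. Myc was on the high side, with 29.1, 22.4 and 32.9 CPM in control libraries 1, 2 and 3 and 51.4, 48.2 and 30.4 CPM in libraries 1, 2 and 3 labelled Srsf3 cKO and a difference of 0.63 (SE 0.22, adjusted p = 0.3598, edgeR). Srf had 114, 109 and 98.4 CPM in control libraries 1, 2 and 3 and 82.3, 110.4 and 100.1 CPM in libraries 1, 2 and 3 labelled Srsf3 cKO, and Egr1 had 7.2, 8.71 and 9.11 CPM in control libraries 1, 2 and 3 and 15.4, 8.15 and 4.34 CPM in libraries 1, 2 and 3 labelled Srsf3 cKO. Both overlapped between the groups. Nr4a1 had 11.7, 16 and 9.67 CPM in control libraries 1, 2 and 3 and 8.92, 17.5 and 10.2 CPM in libraries 1, 2 and 3 labelled Srsf3 cKO, and Nr4a3 was below 2 CPM throughout.

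Ctgf was the member with the largest positive value, with 3.37, 2.69 and 7.45 CPM in control libraries 1, 2 and 3 and 16.1, 10.5 and 8.96 CPM in libraries 1, 2 and 3 labelled Srsf3 cKO. The groups did not overlap, and the difference was 1.38 (SE 0.42, adjusted p = 0.3011, edgeR). Cyr61, its close relative, had 21.3, 59.9 and 26.1 CPM in control libraries 1, 2 and 3 and 32.7, 24.3 and 18.9 CPM in libraries 1, 2 and 3 labelled Srsf3 cKO and overlapped. Zfp36 had 6.42, 11.2 and 4.86 CPM in control libraries 1, 2 and 3 and 8.71, 6.06 and 4.23 CPM in libraries 1, 2 and 3 labelled Srsf3 cKO, and Junb had 5.19, 7.76 and 3.19 CPM in control libraries 1, 2 and 3 and 14.7, 8.45 and 4.68 CPM in libraries 1, 2 and 3 labelled Srsf3 cKO. Cyr61, Zfp36 and Junb were each highest of the controls in library 2 and highest of those labelled Srsf3 cKO in library 1. Ier2 had 112, 113 and 60.4 CPM in control libraries 1, 2 and 3 and 106, 126 and 91.3 CPM in libraries 1, 2 and 3 labelled Srsf3 cKO, and Ier3 had 0.778, 2.15 and 1.29 CPM in control libraries 1, 2 and 3 and 3.85, 1.82 and 0.959 CPM in libraries 1, 2 and 3 labelled Srsf3 cKO. Ier5 differed by -0.45 (SE 0.18, adjusted p = 0.3945, edgeR) with values between 28.0 and 55.8 CPM. Jund had 186, 188 and 154 CPM in control libraries 1, 2 and 3 and 176, 170.4 and 146 CPM in libraries 1, 2 and 3 labelled Srsf3 cKO and Fosl2 4.67, 4.66 and 13.9 CPM in control libraries 1, 2 and 3 and 3.54, 4.81 and 5.47 CPM in libraries 1, 2 and 3 labelled Srsf3 cKO. Fos ran from 0.338 to 2.09 CPM, Atf3 from 1.02 to 2.74 CPM, Klf6 from 29.4 to 59.8 CPM and Klf10 from 9.76 to 20.4 CPM.

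DESeq2 called 2 members in the maxillary process, Ctgf and Jun, among 376 genes (2.32%), and edgeR called Jun when library 1 labelled Srsf3 cKO was left out (-0.98, adjusted p = 0.01849). Summed endothelial and ectoderm markers did not overlap between the groups, while summed facial mesenchyme and neuron and glia markers did. No tested gene of these lists passed the FDR threshold. Endothelial markers, 8 of 8 without overlap, summed to 335 to 348 CPM in the controls. They summed to 870, 502 and 446 CPM in libraries 1, 2 and 3 labelled Srsf3 cKO. In the controls and the other group, ectoderm markers summed to 2.45 to 12.2 CPM and 13.3 to 27.0 CPM. Facial mesenchyme markers summed to 3060 to 4740 CPM and 2320 to 3210 CPM in the same order. Neuron and glia markers summed to 63.6 to 184 CPM and 46.9 to 68.1 CPM. The facial mesenchyme marker Msx1 was at 142, 426 and 476 CPM in libraries 1, 2 and 3 labelled Srsf3 cKO. The part of these cells in the values of Ctgf, Spry4, Spred1, Spred2, Jun or Nr4a2 was not tested.

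**Figure D4:**
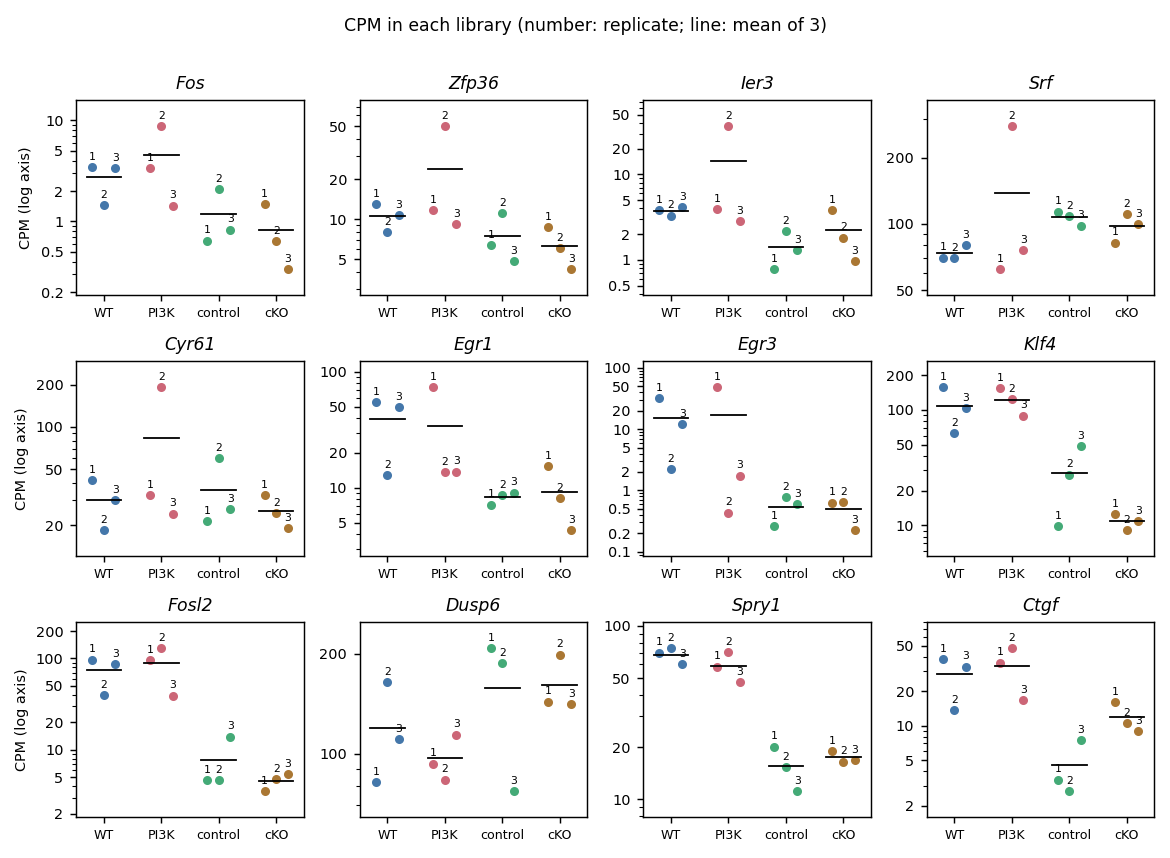
CPM of 12 members in each library on log axes, with wild-type and PI3K palatal shelf and control and labelled cKO maxillary process from left to right, replicate numbers beside the points and a line at the mean of 3. PI3K library 2 stands alone for Srf (278 CPM), Cyr61 (193 CPM) and Ier3 (36.9 CPM), while Fosl2, Klf4 and Spry1 separate all palatal shelf from all maxillary libraries.

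The levels across tissues were compared between the wild-type palatal shelf and the control maxillary process. Stage, tissue, the floxed allele and the sequencing lane named in the labels differ together between these groups and cannot be told apart, and both groups also serve as controls in the comparisons above. At an FDR of 0.05 (edgeR), 15 of 32 members passed, where 50.6% of 15752 genes passed, so the members were called about as often as any gene. Of the 15, 11 were higher in the palatal shelf, where 27.1% of genes were, and 4 lower, where 23.4% of genes were.

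By role, the inducible transcription factors held most of the palatal-high members. Egr3 was higher by 4.79 (SE 1.00, adjusted p = 0.006071) and Egr1 by 2.21 (SE 0.49, adjusted p = 0.007888) on the log2 scale, although the lowest of the 6 palatal shelf libraries reached down to 0.434 and 12.9 CPM. The maxillary values of Egr3 were 0.259, 0.776 and 0.602 CPM without Cre and 0.634, 0.644 and 0.226 CPM in those labelled Srsf3 cKO. Egr2 had 0, 0 and 8 estimated counts in control libraries 1, 2 and 3 (0, 0 and 0.37 CPM), so that its fitted difference of 4.97 (SE 1.11) depends on the prior count. Those labelled Srsf3 cKO had 0.211, 0 and 0 CPM. Myc was higher by 1.5 (SE 0.20, adjusted p = 0.001027), Klf4 by 1.91 (SE 0.54, adjusted p = 0.02059) and Nr4a3 by 1.95 (SE 0.49, adjusted p = 0.01256). Nr4a3 had 0.324, 0.955 and 1.34 CPM without Cre and 0.792, 0.227 and 0.338 CPM in those labelled Srsf3 cKO. Srf was lower in the palatal shelf (-0.55, SE 0.09, adjusted p = 0.002658), a call lost when all 12 libraries were fitted together (adjusted p = 0.3263, edgeR), and PI3K library 2 was above all maxillary libraries.

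In the AP-1 family Fosl2 alone passed the test, higher in the palatal shelf by 3.24 (SE 0.51, adjusted p = 0.001913, edgeR). Of the early response genes, Ctgf was higher by 2.63 (SE 0.49, adjusted p = 0.003763) and Ier3 by 1.40 (SE 0.37, adjusted p = 0.01513, but 0.2136 when all 12 libraries were fitted together), and Ier2 was lower (-1.0, SE 0.26, adjusted p = 0.01586). The inhibitors split by family in sign, but the 95% intervals of Dusp6 (-0.41, SE 0.38), Spred1 (0.06, SE 0.09) and Spred2 (0.08, SE 0.13) held 0. All 4 phosphatases were negative, and Dusp1 (-0.95, SE 0.18, adjusted p = 0.004149) and Dusp4 (-0.78, SE 0.19, adjusted p = 0.01184) passed. All 5 Sprouty and Spred genes were positive, and Spry1 (2.14, SE 0.21, adjusted p = 0.0003383) and Spry2 (0.75, SE 0.19, adjusted p = 0.0131) passed. Spry1 and Dusp4 thus differed in opposite directions between the same libraries, both inhibitors of one cascade. Leaving out wild-type library 1 or 3 or control library 2 ended the calls of Klf4 (adjusted p = 0.06791, 0.05125 and 0.0765) and Ier2 (0.0566, 0.05994 and 0.05788, edgeR), and leaving out wild-type library 3 ended that of Ier3 (0.05402). Without control library 3 the log2 difference was 3.96 for Fosl2, 2.49 for Klf4 and 9.96 for Egr2, and without wild-type library 1 it was 3.70 for Egr3.

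Over all 12 libraries, the 6 palatal and 6 maxillary values did not overlap for 7 of 33 members. Fosb, Fosl2, Egr2, Spry1, Klf4 and Nr4a3 were higher in each palatal library, a 6 of 33 set beside 21.5% of 16877 genes, and Dusp4 was lower in each, set beside 17.2%. Egr1 and Egr3 overlapped, Egr1 through library 1 labelled Srsf3 cKO (15.4 CPM) and Egr3 through PI3K library 2 (0.434 CPM). Ectoderm markers were higher in the palatal shelf in 12 of 12 genes with a median log2 difference of 7.10, and macrophage markers in 7 of 8 at an FDR of 0.05. Klf4 is also expressed in surface epithelium, and the part of these cells was not tested.

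Beside the members, 15 of 32 other immediate early genes were higher in the wild-type palatal shelf and 5 lower at an FDR of 0.05. Over all genes tested 27.1% were higher and 23.4% lower, the shares to set beside each list here. The smallest p among the other immediate early genes belonged to Klf9, higher by 2.21 (SE 0.19), and Sgk1, lower (-1.01, SE 0.09). Of 13 other RTK feedback genes 4 were higher and 2 lower. Dusp9, a cytoplasmic ERK phosphatase like Dusp6, had 142, 91.2 and 48.2 CPM in the controls and 9.0, 14 and 12 CPM in the wild-type palatal shelf. It was lower by 3.02 on the log2 scale (-3.02, SE 0.39, adjusted p = 0.0008589, edgeR). The 13 genes of that list had 7 positive and 6 negative values, with a median of 0.26. Of 18 actin and other SRF and MRTF targets 9 were higher and 5 lower, of 30 genes of the RTK to ERK cascade 6 and 8, and of 12 heat shock genes 2 and 7.

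**Figure D5:**
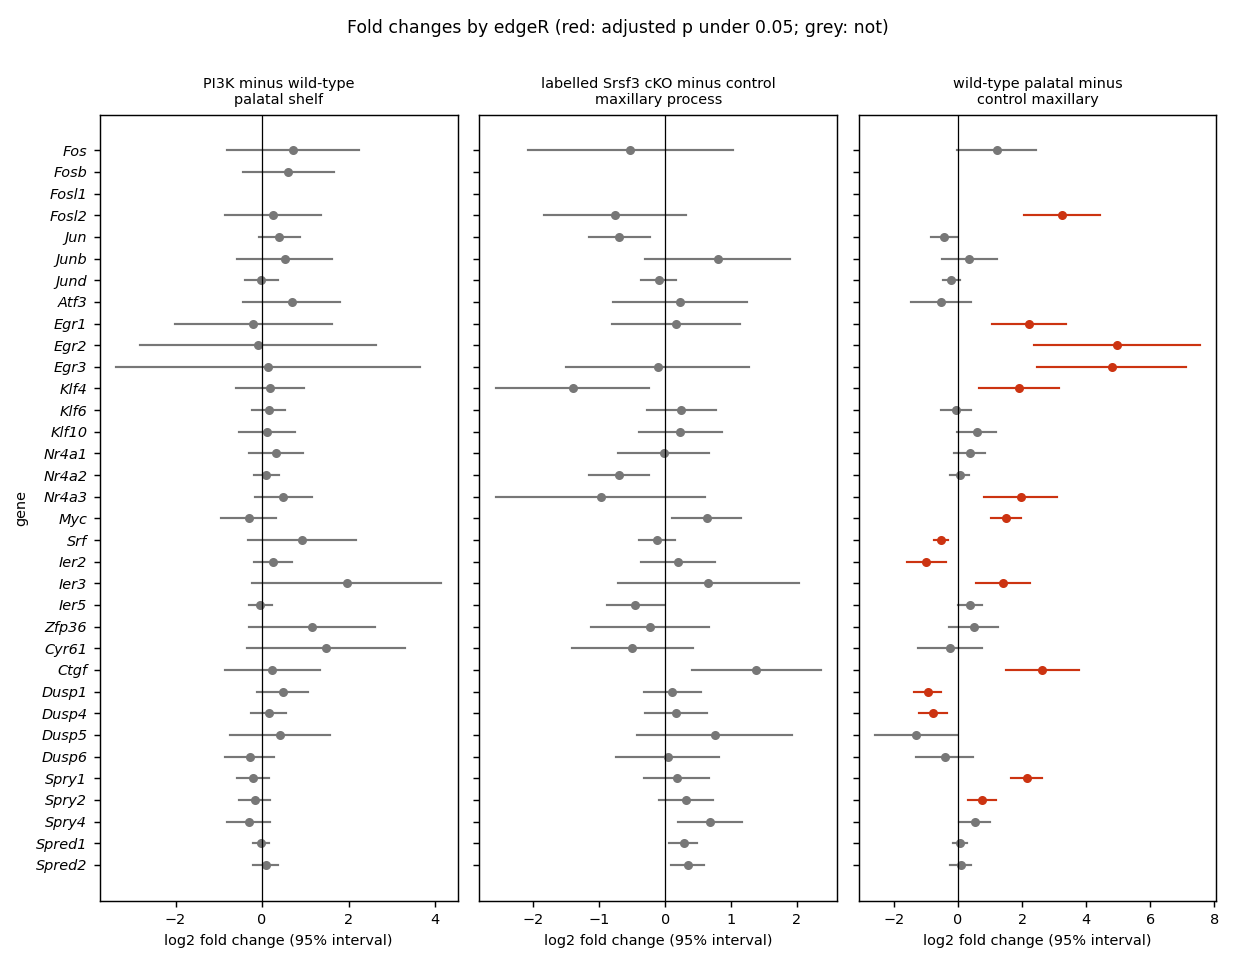
Log2 fold changes (points) with 95% intervals (lines) of the members in PI3K minus wild-type palatal shelf, labelled Srsf3 cKO minus control maxillary process, and wild-type palatal shelf minus control maxillary process, with red for an adjusted p under 0.05. No point is red in the first 2 panels, and 15 of 32 are red in the third.

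Fos was taken as the reference for likeness over libraries, measured as the Pearson correlation of deviations from the 4 group means over 12 libraries. The points share library and depth, so the values are a description. The 8 genes most alike outside the set were Sgms1 (0.93), Ndel1 (0.92), Rab3a (0.92), Gnb2 (0.91), Wwox (0.91), Rnf130 (0.91), Usp53 (0.91) and Sec63 (0.90). Each was again highest of its group in PI3K library 2, with small differences in level: Ndel1 had 48.6, 57.4 and 41.1 CPM in PI3K libraries 1, 2 and 3. Without that library the 8 values were 0.84 to 0.91. The 8 were picked by their likeness to Fos over all 12 libraries, and Fos was itself highest of its group there. Both statements thus follow in part from the choice and do not test the likeness.

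Some member totals are uncertain in a way the tables do not show. Whether strand was used in counting is not given in the sources used here. Jun, Junb, Jund, Dusp1, Dusp5, Spry1, Spry4, Zfp36, Srf, Ctgf, Atf3 and Fosl1 overlap an annotated gene on the opposite strand, and reads of a pair could then not be told apart. Ier3 and Cyr61 overlap none. The part of such reads in the values of Srf and Zfp36 was not tested.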

How the data were processed

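Gene totals of 12 libraries were analysed. The deposited estimated counts and TPM values were made by the authors with Salmon 1.1.0, and the submitters' processing notes also name STAR 2.7.0, DESeq2 1.28.1 and the mm10 build, with no role given. The authors deposited the estimated counts unscaled, and the deposited TPM are scaled for length and depth, in a table per tissue. The strand setting is not given in the sources used here. Symbols came from GENCODE M21, with 53355 of 53392 identifiers matched and 37 not.

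Estimated counts were rounded and compared by edgeR 4.0.16 under R 4.3.3 (quasi-likelihood test, TMM, default low-count filter, Benjamini-Hochberg over all genes tested, FDR 0.05), each comparison on its own 6 libraries with group as the only term. Per-library CPM use TMM factors over 12 libraries. Totals of 15.9 to 37.4 M set the precision of low genes. Each pair of libraries within a group differed beyond sampling noise. The scripts were tested on simulated data.

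The 34 genes, the lists and the tests were chosen with earlier results of these data known. Values per library are given for members that passed the FDR, did not overlap between genotypes, were among the 8 highest by mean TPM, or varied over 2 times within a group at a mean of at least 5 CPM. Others are given by range, except Fos, added after its values were seen. Alternatives were other scalings, filters and thresholds, DESeq2 1.42.0, limma 3.58.1 on log2(TPM + 1) and log2(TPM + 0.1), the replicate block, all 12 libraries in a fit, and leaving out each library. The likeness without PI3K library 2 was chosen after seeing the data.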

Additional observations from a re-analysis of the deposited data

How the results depend on the processing

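In the palatal shelf no member was called by edgeR, DESeq2 or limma under any alternative run, and DESeq2 called 4 genes where edgeR called 0. Leaving out single libraries moved Fos from -0.19 to 1.16, Junb from -0.09 to 0.89, Ier3 from -0.15 to 2.47, Zfp36 from -0.01 to 1.57, Srf from -0.08 to 1.29, Cyr61 from -0.08 to 1.93, Egr1 from -1.49 to 0.18, Egr2 from -2.71 to 0.49, Egr3 from -3.78 to 1.25 and Dusp6 from -0.48 to 0.02 on the log2 scale. Nr4a2 was -0.03 with log2(TPM + 1) and -0.04 with log2(TPM + 0.1), and Egr3 was -0.89 and -1.57. In the maxillary process the genes called were 12, but 143 with no filter on low counts, 376 with DESeq2, 105 with all 12 libraries in 1 fit, 36 at an FDR of 0.1, and 2 to 29 when single libraries were left out (fewest, 2, when control library 2 was dropped, and most, 29, when library 1 labelled Srsf3 cKO was). Dropping control library 1, control library 3 or library 2 labelled Srsf3 cKO gave 6, 3 and 4. Members called there were 2 with DESeq2 and 0 to 1 when single libraries were left out. Srsf3 was -0.16 on both TPM scales, and -0.07 to 0.17 when single libraries were left out, and Pdgfra in the palatal shelf was then -0.07 to 0.10. The cause of these changes was not tested. Between tissues 12 to 19 members were called when single libraries were left out, and the TPM alternatives were not run because the tables were normalised separately.

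The numbers were not taken to pair the libraries, since not every same-number correlation of deviations across genes was over 0.1: they were 0.58, 0.21 and -0.23 in the palatal shelf, 0.06, 0.11 and 0.25 in the maxillary process, and -0.17, 0.04 and -0.01 between wild-type and control. With the replicate block the maxillary count was 40, Egr3 in the palatal shelf was -1.28, and 0 members were called in either genotype comparison.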
